A study of Homo sapiens with 12 samples.

Results

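XPO7 belongs to the karyopherins, the family of receptors that carry proteins and RNAs through nuclear pores. The genes described here were 34 factors of nuclear transport, named by symbol as exportins, importins, RAN cycle proteins and mRNA export factors, and matched by Ensembl identifier to the counts of reads per gene. All 34 were among the 62069 genes of the table, and all 34 were among the 15284 genes with enough reads to be tested. They comprised 7 exportins, 6 importin α adaptors, 11 importin β and other import receptors, 7 proteins of the RAN cycle and 3 factors of mRNA export. The question was whether the relatives of XPO7 change during oncogene-induced senescence (OIS) or after XPO7 is depleted.

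The cells were IMR90 ER:RAS, a strain of human lung fibroblasts with a RAS protein fused to the estrogen receptor, in which 4-hydroxytamoxifen (4OHT) switches on RAS and OIS follows. RNA-seq covered 4 groups with 3 libraries each, and the cells of all 12 carried ER:RAS. Non-induced cells received no 4OHT, and induced cells received 100 nM 4OHT for 5 days. The other groups received the same 4OHT and also expressed 1 of 2 short hairpin RNAs against XPO7, shXPO7_3 or shXPO7_5. The study calls the cells without an shRNA against XPO7 vector cells, and every group was grown for 7 days, its medium renewed on day 4. It is not stated whether replicate libraries were separate cultures, and the p-values therefore rest on the spread among these libraries alone, which may be technical. RAS activation, and the arrest that follows it, came from a drug-activated transgene in 1 fibroblast strain.

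Transport receptors recognise a cargo and bind the small GTPase RAN. Importins pick up cargo in the cytoplasm and release it when RAN-GTP binds them in the nucleus, whereas exportins bind cargo together with RAN-GTP and release it when the GTP is hydrolysed. The direction of transport rests on that gradient, which RCC1 maintains by loading RAN with GTP on chromatin and RANGAP1 by triggering hydrolysis in the cytoplasm. Most mRNA leaves the nucleus by another route, on NXF1 bound to NXT1.

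The total count per library ran from 28534141 to 60397769. Cells of all groups expressed the 7 fibroblast markers, which summed to 23086 to 26996 CPM (counts relative to the library total, scaled by the trimmed mean of M-values, TMM) in non-induced libraries, 16750 to 18214 CPM in induced, 17470.2 to 21369 CPM in shXPO7_3 and 19041 to 21780.5 CPM in shXPO7_5 libraries. In OIS 4 of the 7 were lower (57.1%, beside 26.1% of all genes tested) and none higher (beside 24.8%). The part of this in the changes of the transport factors was not tested. The 3 immune markers summed to at most 0.219 CPM, the 3 epithelial markers to at most 1.24 CPM and the 3 endothelial markers, all of it VWF, to at most 4.17 CPM. KRT5, PECAM1, CDH5 and CD3E were at 0 counts in all 12 libraries. The 12 cell cycle markers summed to 1162 to 1335 CPM in non-induced libraries, 250.3 to 262 CPM in induced, 282 to 303 CPM in shXPO7_3 and 258 to 298 CPM in shXPO7_5 libraries. All 12 were lower in OIS (100%, beside 26.1% of all genes tested). With shXPO7_5, 3 of them, PLK1, AURKB and RRM2, were higher than in induced cells (25%, beside 0.478% of all genes tested). With shXPO7_3, 0 of the 12 passed, beside 0.124% of all genes tested. In bulk RNA, fewer cells of a kind and less RNA per cell cannot be told apart, so a lower value for a gene does not say how many cycling cells remained. Libraries also differed in how their values followed GC content, the share of G and C bases in a transcript. The rank correlation across 14864 genes of each library's log ratio to the induced mean with GC content was 0.58 in shXPO7_3 replicate T, 0.61 in shXPO7_5 replicate T and 0.79 in shXPO7_5 replicate B, against -0.34 to 0.32 in the other 9 libraries. Genes are not independent replicates, and results that moved with this trend are given with and without a correction for it.

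XPO7 (ENSG00000130227, on chromosome 8) was lowered in both shRNA groups, by more with shXPO7_3. Its level was 143, 132 and 129 CPM in the non-induced libraries and 127, 144 and 139 CPM in the induced libraries. With shXPO7_3 it was 26.4, 28.7 and 27.9 CPM, and with shXPO7_5 it was 50.8, 54 and 51.8 CPM. No library of either shRNA overlapped with an induced library, and the shRNA groups did not overlap with each other. The log2 fold change against induced cells was -2.30 with shXPO7_3 (95% confidence interval -2.46 to -2.14, adjusted p = 1.24e-08) and -1.39 with shXPO7_5 (-1.54 to -1.23, adjusted p = 3.27e-06), both by the quasi-likelihood test of edgeR. All adjusted p-values below come from that test, adjusted by Benjamini-Hochberg over all genes tested, unless another tool is named. Tested directly, XPO7 was higher with shXPO7_5 than with shXPO7_3 by 0.92 on the log2 scale (adjusted p = 0.000387). In a fit to only those 6 libraries the difference was 0.91 with an adjusted p of 0.114.

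XPO7 itself did not change detectably in OIS. The induced and non-induced libraries overlapped, and the log2 fold change was 0.023 (95% confidence interval -0.13 to 0.17, adjusted p = 0.807). Over the 15 other ways of processing the value lay between -0.077, with upper-quartile factors, and 0.078, without induced replicate T, and it never passed. XPO7 made up 12.9% ± 2.21 of the summed exportin level per kilobase of exon in non-induced cells and 13.9% ± 0.64 in induced cells (SD, n = 3). Its share was 3.28% ± 0.269 with shXPO7_3 and 6.71% ± 0.553 with shXPO7_5, and each of the 6 knockdown libraries was below each induced library (exact permutation test for each shRNA, two-sided, p = 0.1, the smallest that 3 against 3 libraries allow).

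Levels of the 34 genes, compared per kilobase of union exon length, spanned a wide range. In induced cells KPNB1, the importin β that carries most classical cargo, had the highest mean at 75.5 ± 1.25 CPM per kilobase (SD, n = 3), ahead of RAN at 69.3 ± 2.599 and KPNA2 at 49.99 ± 1.08. The same 3 genes led in non-induced cells, at 85.9 ± 1.07, 79.4 ± 4.86 and 73.4 ± 1.53 CPM per kilobase. XPO7 ranked 14 of 34 in both groups. Next to it in induced cells were XPO6 at 22.3 ± 0.586 and XPO1 at 18.2 ± 0.768 CPM per kilobase, and the XPO7 value of 19.8 ± 1.28 did not differ from that of XPO1 beyond their SDs. NXT2 at 1.34 ± 0.183, KPNA5 at 0.818 ± 0.129 and IPO4 at 0.515 ± 0.0687 CPM per kilobase were the lowest. With the longest transcript as the length, RAN came first and KPNB1 second, so the order of neighbours depends on the length used.

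In OIS, 17 of the 34 genes changed: 5 were higher and 12 were lower. Across all genes tested, 24.8% were higher and 26.1% lower in the same comparison, and the 34 genes came to 14.7% higher and 35.3% lower. Their median log2 fold change was -0.17, beside -0.0068 for all genes tested, and the range was -0.66 to 0.68, so no factor changed by as much as 2-fold. The count of lower genes among the 34 was 7 without induced replicate T, where 3497 of 15504 genes were lower. With each library left out in turn, 11 of the 17 calls held. Upper-quartile factors moved the median of all genes to -0.105 and the calls over all genes from 3793 higher and 3984 lower to 2872 and 4633, with 4 of the 34 higher and 12 lower. The changes of the 17 genes kept their direction under every scaling.

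**Figure D1:**
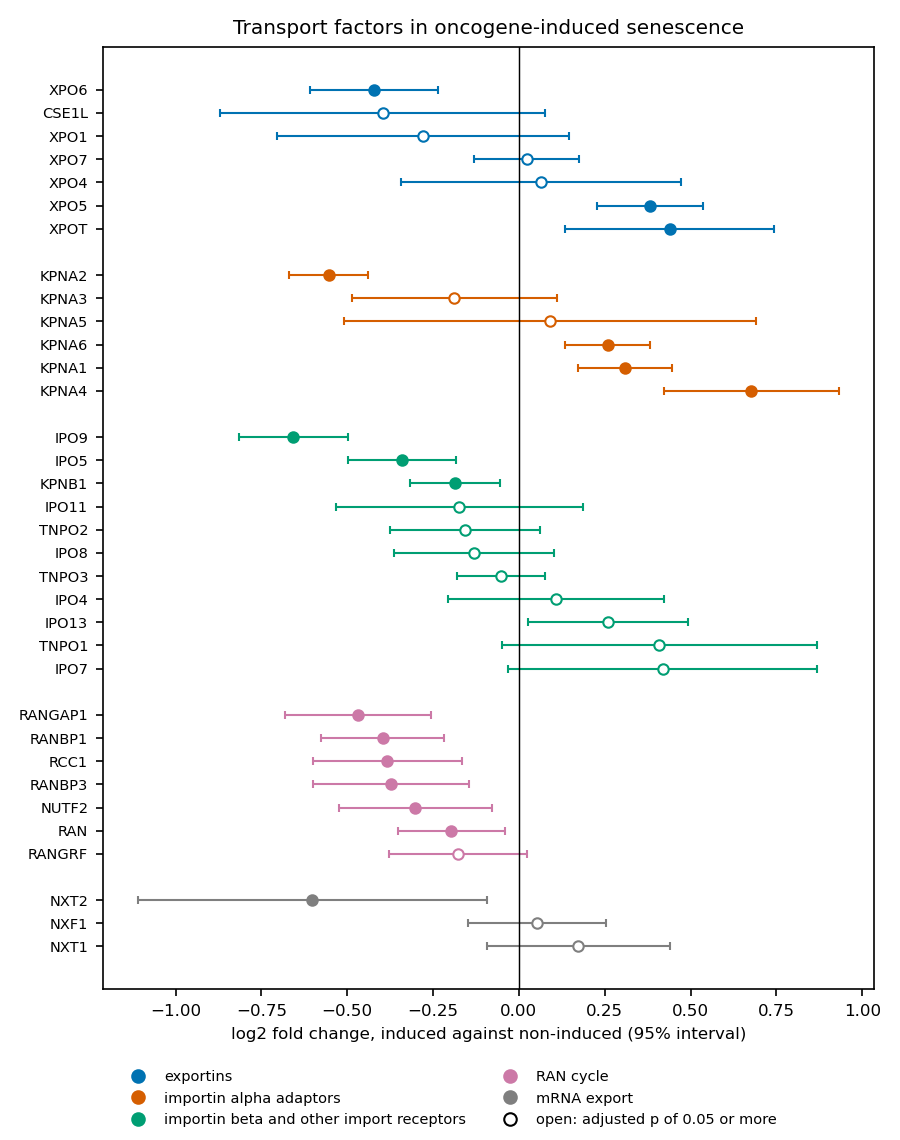
Log2 fold change of each of the 34 transport factors between induced and non-induced cells (x axis), with 95% confidence intervals from the edgeR fit, grouped by role (colours). Filled points passed the adjusted p threshold of 0.05. All 7 RAN cycle genes lie below 0 and 6 are filled, whereas the importin α genes lie on both sides, from -0.55 for KPNA2 to 0.68 for KPNA4.

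The importin α genes, which read the nuclear localisation signal of a cargo and bridge it to KPNB1, changed in opposite directions. KPNA4 rose most, from 151, 178 and 187 CPM in the non-induced libraries to 276, 283 and 267 CPM in the induced libraries. Every induced library was above every non-induced one, by a log2 fold change of 0.68 (standard error, SE, 0.12, adjusted p = 0.000411). KPNA1 (0.31, adjusted p = 0.00129) and KPNA6 (0.26, adjusted p = 0.00223) also rose. With upper-quartile factors KPNA6 kept its direction but not its call (0.16, adjusted p = 0.098). KPNA2 went the other way, from 236, 229 and 227 CPM to 154, 156 and 161 CPM, a log2 fold change of -0.55 (SE 0.053, adjusted p = 2.92e-06), again with no overlap. KPNA3 (-0.19, adjusted p = 0.275) and the weakly expressed KPNA5 (0.091, adjusted p = 0.803) did not pass. KPNA2 was singled out here after its values were seen.

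The make-up of the importin α mRNA pool differed between the states. KPNA2 accounted for 48.3%, 45.5% and 43.97% of the summed level of the 6 genes per kilobase in the non-induced libraries. In the induced libraries it accounted for 32.7%, 32.5% and 34.2%. KPNA4 went from 10.4%, 11.8% and 12.1% to 19.5%, 19.7% and 18.9%. These shares are ratios within a library, so scaling of whole libraries does not move them, and neither pair of groups overlapped (exact permutation test, two-sided, p = 0.1 for each, the smallest possible). KPNA1 made up 7.89% ± 0.0961 and then 10.4% ± 0.309 of the pool, and KPNA6 13.9% ± 1.23 and then 17.6% ± 0.17 (SD, n = 3), each at the same p from the same exact test. The 6 shares add up to the whole pool, so a lower share of KPNA2 raises the others. The p-values of the shares are therefore not separate evidence, and the shares were not corrected for GC content.

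**Figure D2:**
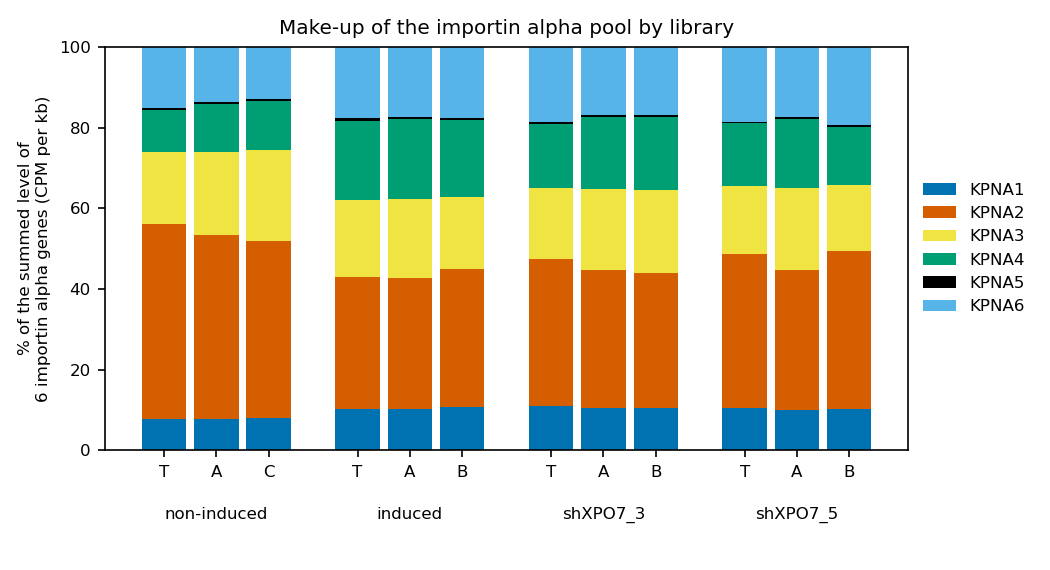
Share of each of 6 importin α genes in their summed level (y axis, per cent of CPM per kilobase) in each of the 12 libraries (x axis, replicate letters under group names). KPNA2 fills 44.0% to 48.3% of the non-induced bars and 32.5% to 39.3% of the bars of the 3 groups that received 4OHT.

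The promoters of these importin α genes are shown because the genes moved apart while the cell cycle markers fell. RefSeq promoters (GRCh38.p14, 250 bases before to 50 bases after a start) matched 29 of the 34 genes, with 39 promoters in all. None matched for XPO7, KPNA4, KPNA5, KPNB1 and RANBP1. They were searched on both strands for TTTGAA, the CHR element known from genes of late cell cycle phases, for CCAAT, and for the E2F motifs TTTCGCGC, TTTGGCGC, TTTCCCGC and TTTGCCGC. CHR letters were in 6 of the 39 promoters (15.4%), against 10.6% of the 16236 promoters of genes tested and 15.2% of all 35116 promoters. CCAAT was in 14 (35.9%, against 34.5% and 34.6%) and an E2F motif in 3 (7.69%, against 4.69% and 3.31%). A promoter holding both CHR and CCAAT letters was found for KPNA2 and CSE1L, 2 of the 39 promoters (5.13%), against 4.21% of the promoters of genes tested. The 250 bases before the start are given 5′ to 3′ on the strand of the gene, with matches in capitals. For KPNA2 (chr17:68035485-68035734, plus strand), which fell, they hold CHR letters that begin 99 bases before the start, on the opposite strand, and CCAAT that begins 89 and 58 bases before it. For KPNA1 (chr3:122514940-122515189, minus strand), which rose, they hold no match, but KPNA6, which also rose, has CCAAT letters that begin 74 and 68 bases before its start, the first on the opposite strand. KPNA3 (-0.19, not called) had no match. The 50 bases searched after the start, not printed, hold a further CHR match for KPNA2, on its own strand, from base 33. A match describes the letters and does not show that a factor binds there.
KPNA2: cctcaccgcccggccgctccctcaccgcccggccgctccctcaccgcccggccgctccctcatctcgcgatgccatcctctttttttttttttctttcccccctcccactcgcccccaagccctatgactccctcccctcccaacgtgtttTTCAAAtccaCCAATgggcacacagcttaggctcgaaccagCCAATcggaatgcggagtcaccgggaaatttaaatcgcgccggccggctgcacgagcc
KPNA1: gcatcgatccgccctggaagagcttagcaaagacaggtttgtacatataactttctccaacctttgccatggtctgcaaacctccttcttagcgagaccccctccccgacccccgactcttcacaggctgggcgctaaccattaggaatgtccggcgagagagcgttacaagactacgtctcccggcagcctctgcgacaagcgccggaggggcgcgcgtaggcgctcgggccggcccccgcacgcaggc

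All 7 genes of the RAN cycle had lower means in induced cells, and 6 of 7 passed the test (85.7%, beside 26.1% of all genes tested). Without induced replicate T 3 of 7 passed, in a fit where 3497 of 15504 genes were lower. RANGAP1, the GTPase-activating protein, went from 228, 210.4 and 199 CPM to 152, 149 and 158 CPM. Its groups did not overlap, and its log2 fold change was -0.47 (SE 0.10, adjusted p = 0.00154), the largest of the class. RANBP1, which helps RANGAP1 to act on receptor-bound RAN, fell by a similar amount (-0.40, adjusted p = 0.00154), as did RCC1, the exchange factor (-0.38, adjusted p = 0.00656). RANBP3, a cofactor of XPO1, was at -0.37 (adjusted p = 0.01) and NUTF2, which returns RAN to the nucleus, at -0.30 (adjusted p = 0.0276).

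RAN itself, singled out for its role, was at 410.2, 372 and 368 CPM in the non-induced and 325, 329 and 348 CPM in the induced libraries. The groups did not overlap and the log2 fold change was -0.20 (adjusted p = 0.036), the smallest of the 6 that passed. Without induced replicate T the calls of RAN (adjusted p = 0.121), RANBP3 (0.0542) and NUTF2 (0.0699) were lost, and those of RANGAP1, RANBP1 and RCC1 held. RAN also missed the threshold without non-induced replicate T (0.142) and without induced replicate A (0.109), and NUTF2 without non-induced replicate T (0.102) and without induced replicate B (0.0861). DESeq2 gave RAN an adjusted p of 0.0546. RANGRF (-0.18, adjusted p = 0.127), which binds RAN in the nucleus, did not pass, and 82.0% of its exon bases lie opposite SLC25A35, so its counts are uncertain where the strand setting is not known. The summed cell cycle markers given above were lower in the same comparison as the RAN cycle genes and KPNA2, and their part in these changes was not tested.

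The exportins split. XPOT, which exports tRNA, was at 147, 198 and 198 CPM in the non-induced and 242, 255 and 238 CPM in the induced libraries. All induced values were higher (log2 fold change 0.44, SE 0.14, adjusted p = 0.0198), although the call was lost without non-induced replicate T (adjusted p = 0.0725), without induced replicate A (0.0607) and without induced replicate B (0.0517). XPO5, the exportin of microRNA precursors, rose by 0.38 (adjusted p = 0.000678). XPO6, which exports actin, fell by 0.42 on the log2 scale, from 211 ± 19.2 to 158 ± 4.14 CPM (SD, n = 3, adjusted p = 0.00135). XPO1, the exportin of leucine-rich signals, was at 197, 271 and 306 CPM and then 211, 222 and 205 CPM. CSE1L, which returns importin α to the cytoplasm, was at 119, 187 and 194 CPM and then 125, 132 and 123 CPM. For both, non-induced replicate T was as low as the induced libraries while the other two were higher, so the groups overlapped and neither passed (XPO1 -0.28, adjusted p = 0.255, and CSE1L -0.40, adjusted p = 0.148). Without that library CSE1L passed (-0.59, adjusted p = 0.0310). XPO1 and CSE1L were named after their values were seen.

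Among the 11 importin β and other import receptors, 3 were lower (27.3%, beside 26.1% of all genes tested) and none passed as higher (beside 24.8%). IPO9, an import receptor of histones and actin, showed the largest change, from 166, 148 and 151 CPM to 94.2, 96.97 and 104 CPM. The lowest non-induced value was well above the highest induced one, and the log2 fold change was -0.66 (SE 0.073, adjusted p = 1.06e-05). IPO5, an import receptor of ribosomal proteins and histones, fell by 0.34 on the log2 scale (adjusted p = 0.00171). KPNB1 was at 655, 655 and 669 CPM in non-induced and 568, 585 and 585 CPM in induced libraries, a small shift without overlap (-0.19, adjusted p = 0.0211). Its call was lost without non-induced replicate C (adjusted p = 0.0617), induced replicate T (0.0796) or induced replicate A (0.0567), and with no filter on low counts (0.124).

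The paralogs TNPO1 and TNPO2, which import RNA-binding proteins, had values on either side of 0, and neither passed in the fit used throughout. TNPO1 was at 259.7, 378 and 439.6 CPM in the non-induced and 489, 499.8 and 442 CPM in the induced libraries (0.41, adjusted p = 0.124), and it passed with no filter on low counts (adjusted p = 0.0272). TNPO2 was at 138, 123 and 116 CPM and 112, 115 and 111 CPM (-0.16, adjusted p = 0.212). Neither gene overlapped between the groups, but the non-induced libraries were spread widely in TNPO1, with replicate T the lowest. TNPO2 made up 47.4%, 35.8% and 30.96% of the summed pair in the non-induced and 28.1%, 28.1% and 29.98% in the induced libraries (exact permutation test, two-sided, p = 0.1). This share was not corrected for GC content, which was 40.1% for TNPO1 and 57.7% for TNPO2. In the libraries with the strongest GC trend it was 36.0% (shXPO7_3 T), 38.2% (shXPO7_5 T) and 42.6% (shXPO7_5 B). In the remaining knockdown libraries the share was 24.1% to 27.4%, and the part of GC content in it was not tested. IPO7 (0.42, adjusted p = 0.109) had a mean close to that of TNPO1 in direction and size, and it passed without non-induced replicate C (0.59, adjusted p = 0.0462), with no filter on low counts (adjusted p = 0.0223) and in a fit to only these 6 libraries (adjusted p = 0.0475). IPO13 was at 0.26 (adjusted p = 0.0593) and passed without non-induced replicate T (0.35, adjusted p = 0.0229) and in a fit to only these 6 libraries (adjusted p = 0.0320). IPO4, IPO8, IPO11 and TNPO3 lay between -0.17 and 0.11 on the log2 scale and did not pass. IPO4 had only 1248 reads over all 12 libraries, and 69.3% of its exon bases are shared with another annotated gene, so its level is uncertain.

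Of the 3 mRNA export factors only NXT2 passed, as lower (33.3%, beside 26.1% of all genes tested). It was at 4.79, 6.07 and 7.74 CPM in the non-induced and 4.37, 4.501 and 3.47 CPM in the induced libraries, a log2 fold change of -0.60 (SE 0.23, adjusted p = 0.0482). The groups did not overlap, but they came close, and the call was lost in 5 of the 6 fits that left out 1 library, with edgeR's adjusted p-values of 0.0717 without induced replicate A, 0.0810 without induced replicate T, 0.0865 without non-induced replicate A, 0.162 without induced replicate B and 0.186 without non-induced replicate C. NXT1, its more abundant paralog, was at 11.9, 10.5 and 9.86 CPM and 11.7, 12.5 and 12.1 CPM and overlapped (0.17, adjusted p = 0.256). NXF1, their partner, was at 0.052 (adjusted p = 0.662).

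**Figure D3:**
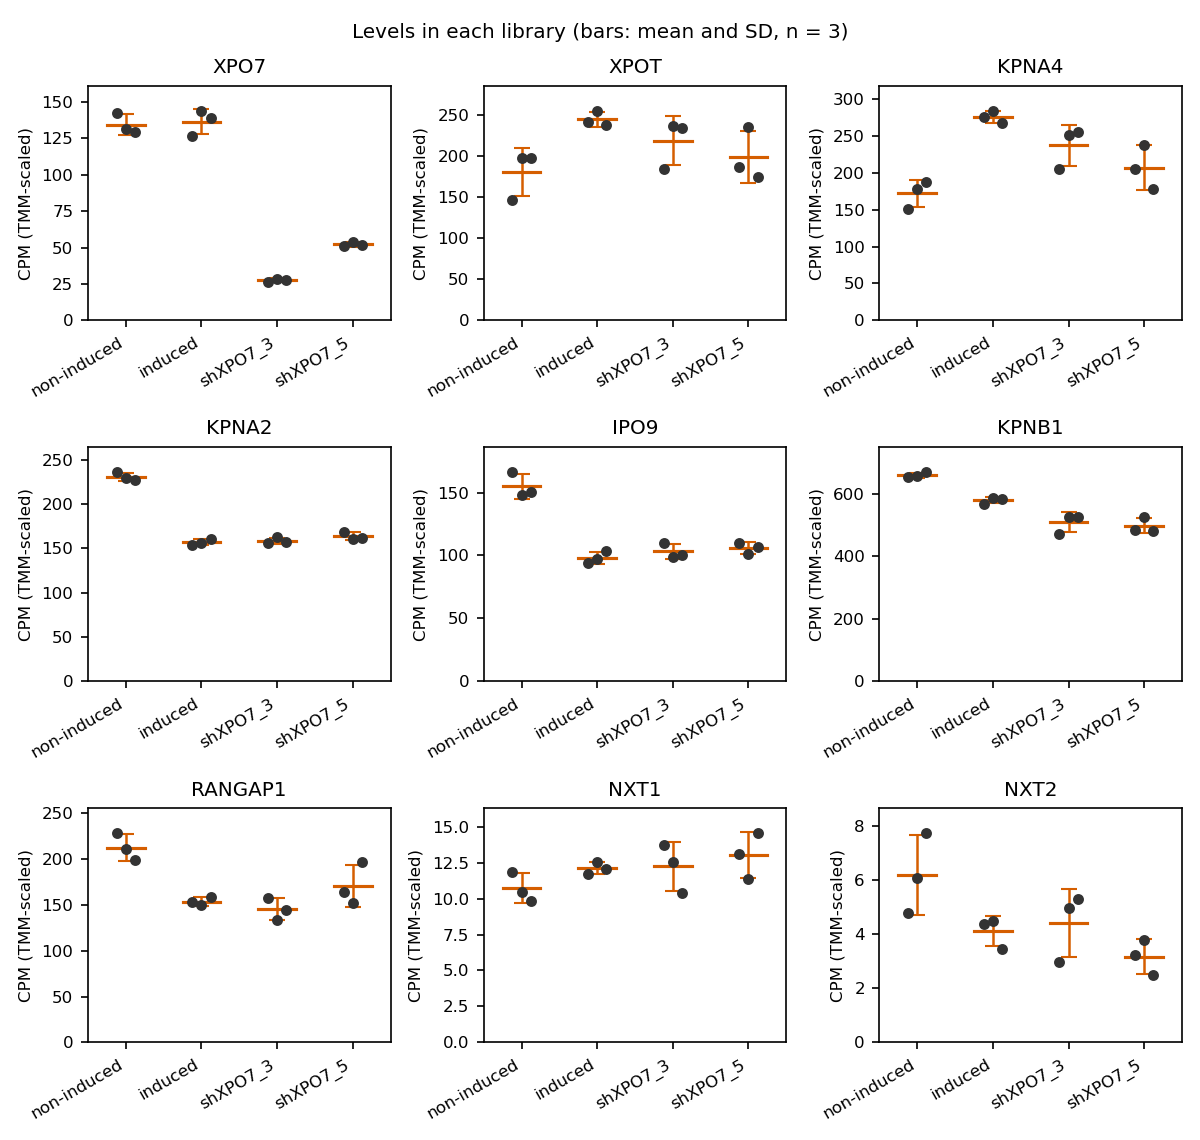
Level of 9 transport factors in each library (y axes, TMM-scaled CPM from 0; x axes, the 4 groups of 3 libraries; points are libraries in the order T, A and C or B, horizontal bars the mean and vertical bars the SD). XPO7 is low in both shRNA groups and similar in the others, KPNA4 and XPOT are higher in all induced than in all non-induced libraries, and KPNA2, IPO9, KPNB1, RANGAP1 and NXT2 are lower.

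Genes of the same pathway outside these 34 gave the following in OIS. Of 14 further genes tied to karyopherins, 12 were tested, with 3 higher (25%, beside 24.8% of all genes tested) and 1 lower (8.33%, beside 26.1%). NMD3, an adaptor for export of the large ribosomal subunit, was higher (0.65, adjusted p = 0.0261), as were RANBP10 (0.28, adjusted p = 0.0171) and HEATR3 (0.25, adjusted p = 0.0106), and SNUPN, the import adaptor of spliceosomal snRNPs, was lower (-0.63, adjusted p = 0.000468). RANBP17, the closest relative of XPO7, was at 8.71 ± 1.798 CPM in non-induced and 9.62 ± 0.254 CPM in induced cells (SD, n = 3) and did not pass (0.14, adjusted p = 0.472). Of 22 genes of mRNA export complexes, 3 were higher (13.6%, beside 24.8% of all genes tested) and 6 lower (27.3%, beside 26.1%). THOC6, a subunit of the THO complex, went from 9.4 ± 0.486 to 3.31 ± 0.165 CPM (SD, n = 3), or by -1.51 as a log2 fold change (adjusted p = 2.24e-07), followed by DDX39A (-0.53, adjusted p = 0.000283) and PCID2 (-0.46, adjusted p = 9.97e-05). FYTTD1 (0.49, adjusted p = 0.0451), THOC5 (0.35, adjusted p = 0.00692) and DDX19A (0.29, adjusted p = 0.00581) were the 3 that rose.

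Of 28 nucleoporins, the proteins that build the pore, 27 were tested, and 2 were higher (7.41%, beside 24.8% of all genes tested) and 11 lower (40.7%, beside 26.1%) in OIS. The lower ones were led by NDC1, which anchors the pore in the membrane (-0.88, adjusted p = 3.62e-06), NUP62 of the central channel (-0.63, adjusted p = 0.000132) and NUP37 of the outer ring (-0.56, adjusted p = 7.36e-05). NUP58 (0.58, adjusted p = 0.00318) and SEH1L (0.47, adjusted p = 0.00456) rose. The median log2 fold change of the 27 was -0.064, beside -0.0068 for all genes tested.

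After knockdown of XPO7, none of its 33 relatives passed the test with either shRNA. With shXPO7_3, 19 of the 15284 genes were called (0.124%), with shXPO7_5 90 genes (0.589%), with the mean of both shRNAs 85 genes (0.556%) and between the shRNAs 2 genes (0.0131%), and XPO7 was the only transport factor of the 34 among them in each case. At an unadjusted p under 0.05, edgeR gave 1 relative with shXPO7_3, 7 with shXPO7_5, 5 with the mean of both and 2 between the shRNAs. Of all 15284 genes tested, 979, 3302, 1825 and 1819 were under it in the same order. DESeq2 called 0 of 33 with shXPO7_3, 1 with shXPO7_5 (RANGRF), 0 with the mean of both and 0 between the shRNAs. Over all 15284 genes DESeq2 called 88, 426, 248 and 27 in the same order. The comparisons with each shRNA share the induced libraries, as does the comparison of OIS. Induced replicates and shRNA replicates left out in turn gave 0 relatives in every fit except that without shXPO7_5 replicate A. There 9 relatives were called with shXPO7_5, while 3634 of 15790 genes were called (23.0%).

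The intervals of the fit without GC correction describe each relative on its own and rest on the spread among these libraries. With shXPO7_3 the 33 log2 fold changes ran from -0.22 for KPNA4 to 0.18 for NUTF2, and all 33 of the 95% confidence intervals lay within -1 and 1, so a 2-fold change of any relative was outside its interval. In 29 of the 33 the interval lay within -0.5 and 0.5. With shXPO7_5 the values ran from -0.50 for KPNA5 to 0.34 for RANGRF, 32 of 33 intervals lay within -1 and 1, and KPNA5, at 6.57 ± 2.397 CPM (SD, n = 3), was the exception (-1.12 to 0.11). In 20 of the 33 the interval lay within -0.5 and 0.5. RANBP17 did not pass with shXPO7_3 (-0.13, adjusted p = 0.999) or with shXPO7_5 (-0.30, adjusted p = 0.257), and no other karyopherin-related gene, mRNA export gene or nucleoporin of the lists above passed with either shRNA.

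**Figure D4:**
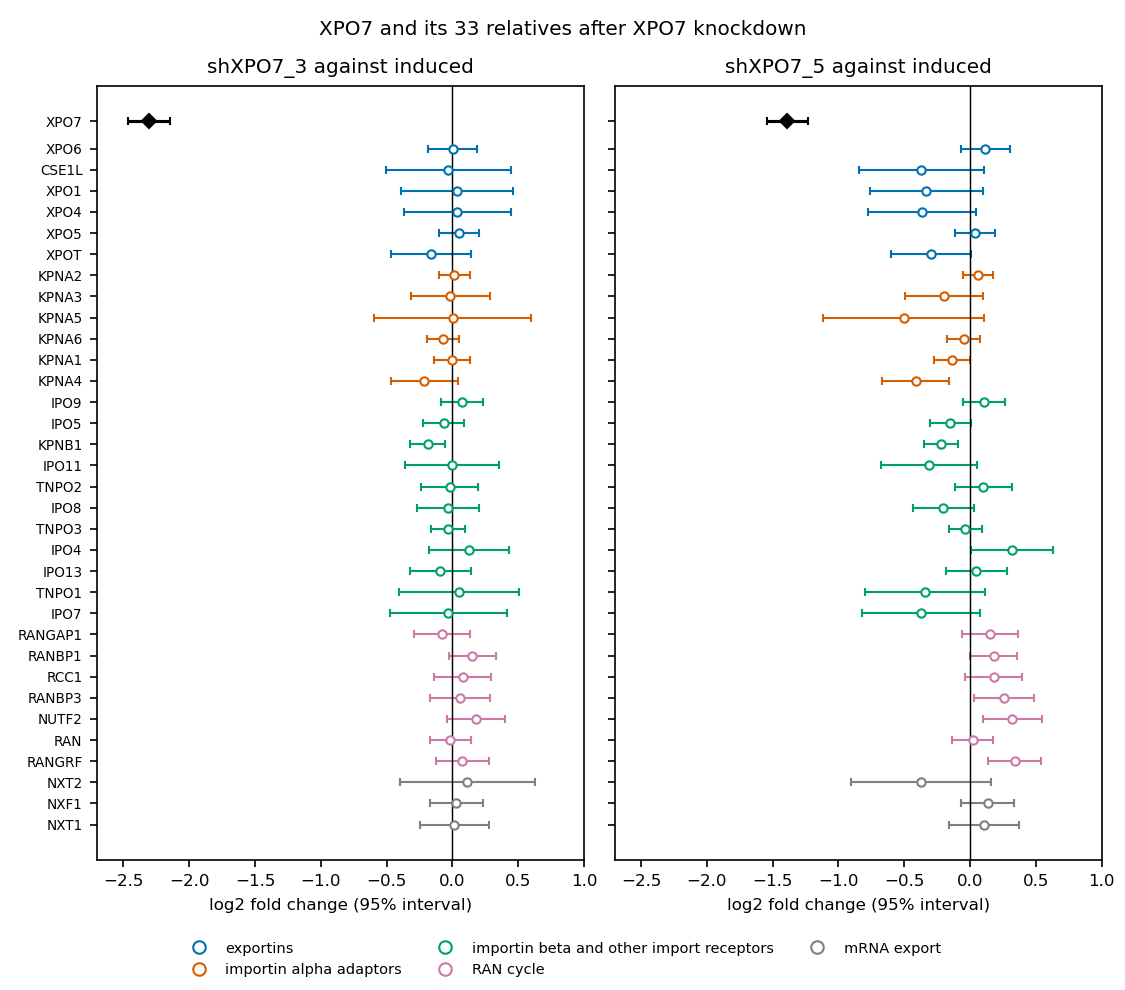
Log2 fold change against induced cells (x axes, with 95% confidence intervals) of XPO7 (black diamonds) and its 33 relatives (open circles, coloured by role) with shXPO7_3 on the left and shXPO7_5 on the right. XPO7 lies at -2.30 and -1.39, whereas every relative lies between -0.50 and 0.34 and none passed the adjusted p threshold.

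KPNB1 and KPNA4 had the same direction with both shRNAs and were named after their values were seen. KPNB1 was at 471, 527 and 527 CPM with shXPO7_3 and 485, 525 and 482 CPM with shXPO7_5, against 568, 585 and 585 CPM in induced libraries. All 6 knockdown libraries were below all 3 induced ones, but the log2 fold changes of -0.19 (95% confidence interval -0.32 to -0.058, adjusted p = 0.443) and -0.22 (-0.35 to -0.09, adjusted p = 0.111) did not pass. KPNA4, the relative that rose most in OIS, was at 205, 252 and 255 CPM with shXPO7_3 and 205, 238 and 178 CPM with shXPO7_5, against 276, 283 and 267 CPM in induced libraries. Here too the groups did not overlap, with log2 fold changes of -0.22 (adjusted p = 0.914) and -0.41 (adjusted p = 0.124). Of the 33 relatives, 4 had all 6 knockdown libraries below all 3 induced ones, KPNB1, KPNA4, KPNA6 and XPOT, as did 3.45% of all genes tested. With no filter on low counts KPNA4 passed with shXPO7_5 (adjusted p = 0.0479). KPNA4 made up 19.4% ± 0.4 of the importin α pool in induced cells, 17.2% ± 1.19 with shXPO7_3 and 15.7% ± 1.39 with shXPO7_5 (SD, n = 3; exact permutation test for each shRNA, two-sided, p = 0.1). These shares were not corrected for GC content, which was 40.6% for KPNA4 and 45.8% for KPNA2. Among knockdown libraries the lowest were 15.9% (shXPO7_3 T), 15.5% (shXPO7_5 T) and 14.4% (shXPO7_5 B), in the libraries with the strongest GC trend.

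The 7 RAN cycle genes all had positive log2 fold changes with shXPO7_5, from 0.019 for RAN to 0.34 for RANGRF, but none passed. RANGRF was at 13.4, 14.9 and 16.1 CPM in induced and 18.3, 17.8 and 20.01 CPM in shXPO7_5 libraries, with no overlap and an adjusted p of 0.11. NUTF2 was at 24.8, 26.4 and 23 CPM and 31.8, 26.2 and 34.6 CPM, with overlap and an adjusted p of 0.155. With shXPO7_3, 5 of the 7 were positive, from -0.08 for RANGAP1 to 0.18 for NUTF2. With each library's trend on GC content taken out, the values with shXPO7_5 ran from -0.061 for RANGAP1, the only negative one, to 0.20 for NUTF2, with RCC1 at 0.014, RANBP1 at 0.031, RANBP3 at 0.056, RAN at 0.11 and RANGRF at 0.15, and none passed. RANGRF and NUTF2 were named after their values were seen. The GC content of these transcripts was 44.6% for RAN and 52.5% to 58.6% for the other 6 genes.

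The changes of the relatives with shXPO7_5 were ordered by the GC content of their transcripts. The rank correlation of the 33 log2 fold changes with GC content was 0.89 with shXPO7_5 and 0.14 with shXPO7_3, and 0.69 and 0.11 across all 14864 genes with a GC value, where all points share the same libraries. Relatives low in GC had low values, such as KPNA5 (35.7% GC, -0.50), CSE1L (39.3%, -0.37) and XPO4 (38.5%, -0.36), and those rich in GC had high ones, such as IPO4 (59.9%, 0.32) and RANBP3 (57.6%, 0.26). A correction took each library's smooth trend on GC content and transcript length out of the fit. With it the correlation over the 33 relatives was 0.17 with shXPO7_5, and their median absolute log2 fold change went from 0.198 to 0.0596, whereas with shXPO7_3 it went from 0.0487 to 0.0441. Such falls with shXPO7_5 follow from how the correction works, which would also take out real changes ordered by GC content. XPO7 stayed at -2.29 and -1.35.

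Under the correction KPNB1 hardly moved with either shRNA, whereas KPNA4 kept its value with shXPO7_3 and moved towards 0 with shXPO7_5. KPNB1 was at -0.19 with shXPO7_3 (adjusted p = 0.0672), -0.21 with shXPO7_5 (adjusted p = 0.0359) and -0.20 with the mean of both (adjusted p = 0.0202). KPNA4 was at -0.21 (adjusted p = 0.0339), -0.13 (adjusted p = 0.141) and -0.17 (adjusted p = 0.0314). The corrected fit thus called 1 relative with shXPO7_3 (KPNA4), 1 with shXPO7_5 (KPNB1) and 3 with the mean of both (KPNA4, KPNB1 and IPO13, the last at -0.14 with an adjusted p of 0.0495). It called 2.62%, 3.39% and 4.34% of all genes in these comparisons, which is close to 1 in 33 relatives for each shRNA. Between the shRNAs it called 0 of the 33.

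**Figure D5:**
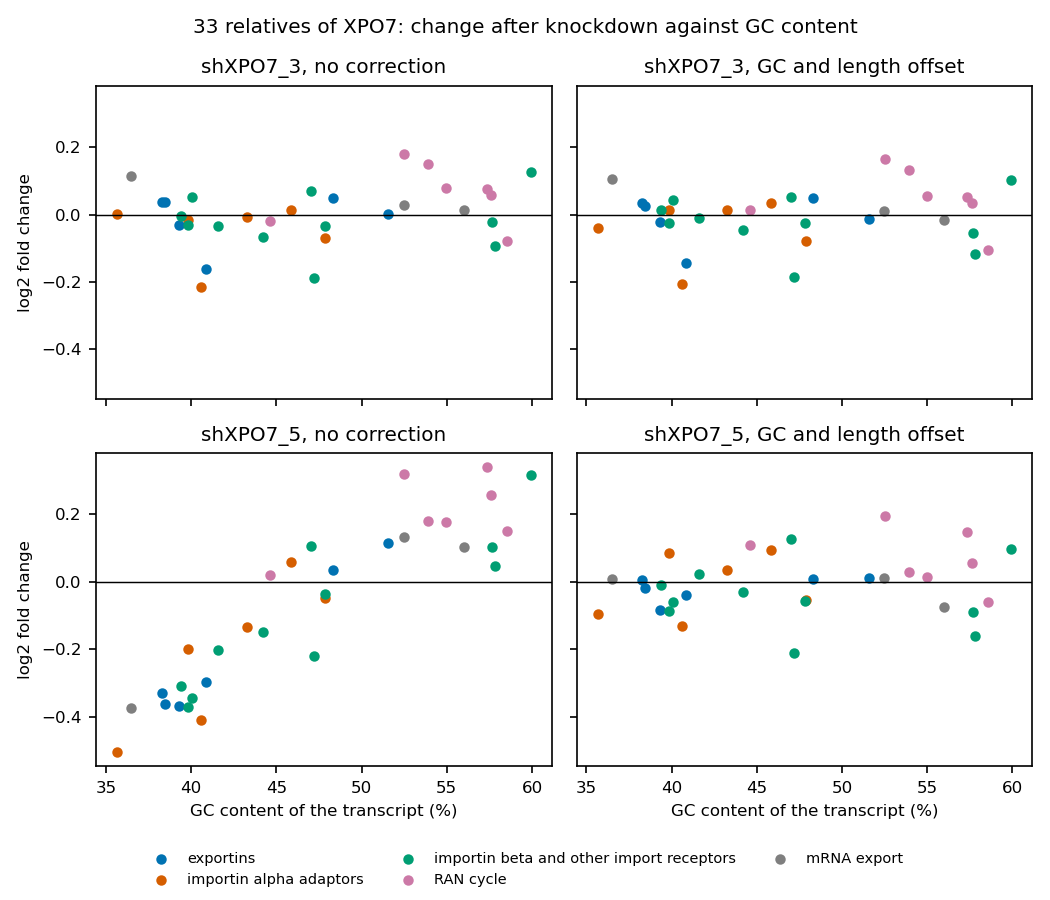
Log2 fold change against induced cells (y axes) of the 33 relatives of XPO7 against the GC content of their transcripts in per cent (x axes), for shXPO7_3 (top) and shXPO7_5 (bottom), without (left) and with (right) the correction for GC content and length; points are genes, coloured by role. Only the panel of shXPO7_5 without correction shows a slope, with values from -0.50 to 0.34, and with the correction the points lie between -0.21 and 0.20. The correction takes out a trend on GC content by design.

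In OIS the same correction left all 17 calls in place and added 10. Of the 34 genes, 10 were then higher and 17 lower, while 33.3% and 31.4% of all genes were. The 5 added as lower were XPO1 (-0.40, adjusted p = 1.16e-06), CSE1L (-0.49, adjusted p = 0.000174), KPNA3, IPO8 and IPO11. The 5 added as higher were IPO7 (0.33, adjusted p = 0.000307), TNPO1 (0.34, adjusted p = 0.000953), IPO13, NXT1 and NXF1. Most of these have transcripts low in GC, such as XPO1 (38.3%), CSE1L (39.3%), IPO7 (39.8%) and TNPO1 (40.1%), and were spread among the non-induced libraries, whose correlations with GC content ran from -0.050 to 0.31. The SE of XPO1 went from 0.195 to 0.0394 with the correction, although its groups overlapped without it. The correction was estimated from these same libraries and then taken as known, so adjusted p-values of the corrected fit may be too small. XPO7 remained without a detectable change (-0.0068, adjusted p = 0.917).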

How the data were processed

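RNA-seq of 12 libraries in 4 groups was analysed. The authors deposited raw counts, 1 value per gene and library. A kit for stranded mRNA was used, and the tools in the submitters' processing notes are TopHat2 2.0.11, featureCounts 1.18.0 and CASAVA 1.8.4, with hg19 and GRCh37 as builds. How strand and multiply mapped reads were handled is not given in the sources used here, nor is the annotation. The 92 spike-in entries held 0 counts and were left out.

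Symbols, lengths and GC content came from a table of gene names and from GENCODE release 29 (GRCh38), matched by Ensembl identifier only. Counts were fitted in R 4.3.3 with edgeR 4.0.16 after filterByExpr and TMM scaling, as a quasi-likelihood model of all 12 libraries without covariates. The Benjamini-Hochberg adjustment covered all 15284 genes tested, with a threshold of 0.05. Fold changes are on the log2 scale. Levels in CPM per kilobase used the union of a gene's exons. The correction for GC content and length was an offset from splines with 5 degrees of freedom, fitted to each library, and 97.3% of the genes tested had both values. DESeq2 1.42.0 served as an alternative. The code was tested on simulated data. Protein sequences were not used here.

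The 34 genes, the lists and the comparisons were chosen with earlier results of these data known. Values in every library are given for XPO7, the gene of each role with the largest change in OIS and the paralog pairs NXT1/NXT2 and TNPO1/TNPO2. RAN was added for its role, and the others so described were chosen after their values were seen. In OIS none of the 34 reached the log2 fold change of 0.8 set for further naming. Replicate letters were checked for pairing: the correlations of same-letter deviations ran from -0.017 to 0.061 between shXPO7_3 and induced cells, -0.071 to 0.19 between shXPO7_5 and induced cells and -0.23 to 0.37 between the shRNAs. For OIS only the letters T and A are shared, at 0.20 and 0.21, and the sources do not say what a letter marks. Correlations between different letters were not computed, so the check cannot tell whether a letter marks pairs. The letters were not treated as pairs in the main fit, and a block for the letter was among the alternatives. Replicates differed beyond counting noise (chi-square of 4.57 to 61.7 per gene), and all were kept as replicates. Such an excess cannot show that they were separate cultures, because libraries also differed in their trend on GC content. The alternatives tried were other scaling factors and filters, a block for the letter, single libraries left out, fits to the compared groups, DESeq2 and the GC correction.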

Additional observations from a re-analysis of the deposited data

Results flagged for a closer look

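The knockdown of XPO7 differed between the 2 shRNAs by a direct test. XPO7 was higher with shXPO7_5 than with shXPO7_3 by a log2 fold change of 0.92 (edgeR, adjusted p = 0.000387), with all 3 shXPO7_5 libraries (50.8, 54 and 51.8 CPM) above all 3 shXPO7_3 libraries (26.4, 28.7 and 27.9 CPM). In an edgeR fit restricted to these libraries the difference was 0.91 and did not pass (adjusted p = 0.114). No relative differed between the shRNAs at the same threshold by edgeR, with 2 of 33 at an unadjusted p under 0.05 and 0 by DESeq2. Of all 15284 genes tested, edgeR put 1819 under that unadjusted p, and DESeq2 called 27. Groups of 3 libraries are too small for the test of outlying samples.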

How the results depend on the processing

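The alternatives were other scaling factors (RLE, upper-quartile), other filters, fits without the remaining groups, single libraries left out, DESeq2, the replicate letter as a block, and the GC and length correction. Of the 17 calls in OIS, 10 held under all 15 alternatives and none changed direction. The 5 higher became 10 with the GC correction and 10 with the replicate block and GC correction together, and the 12 lower became 17 and 16, and ranged from 7, without induced replicate T, to 11 with 1 library left out. Of all 15284 genes, 5085 and 5042 were higher and 4798 and 4647 lower in these corrected fits. Without induced replicate T 3497 of 15504 genes were lower. Relatives called with shXPO7_3 went from 0 to 1 with the GC correction and 3 with the block and GC correction (KPNA4, KPNB1 and XPOT). Over all 15284 genes tested, these fits called 401 and 506. With shXPO7_5 the relatives called went from 0 to 1 with no filter (KPNA4), 1 with DESeq2 (RANGRF), 1 with the GC correction and 2 with the block and GC correction. Over all genes the same fits called 217 of 31672, then 426, 518 and 1061 of 15284. Across the fits that left out 1 library, the relatives called with shXPO7_5 went from 0 to 9. The 9 came without shXPO7_5 replicate A, where 3634 of 15790 genes were called. With both shRNAs averaged the relatives called went from 0 to 3 with the GC correction and 3 with the block added, beside 664 and 923 of all genes. IPO13 with shXPO7_5 turned from 0.046 to -0.16 with the block and GC correction (adjusted p = 0.046). Genes of the other transport lists called with shXPO7_5 went from 0 to 1 with the GC correction, 3 with the block and GC correction, and from 0 to 19 with 1 library left out (19 without the same library). The cause of these shifts was not tested.

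With the replicate letter alone as a block, 7 of the 34 were higher and 11 lower in OIS and 0 relatives were called after knockdown. Of all 15284 genes tested, 3956 were higher and 4031 lower in OIS under that block. IPO7 (0.63, adjusted p = 0.00907) and TNPO1 (0.63, adjusted p = 0.0095) were gained in OIS under the block, and NXT2 (-0.37, adjusted p = 0.199) was lost. Nothing in the sources says that a letter marks a shared culture or day, and same-letter deviations correlated over 0.1 in every pair only for the 2 letters that OIS shares. Between non-induced T and shXPO7_3 T, which were not compared, the correlation was 0.59. Over all genes the block moved the calls with shXPO7_5 from 90 to 149.

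IPO4, KPNA5 and NXT2 had the lowest levels, at most 3.47, 11.1 and 7.74 CPM in any library. With the GC correction the standard error fell for KPNA5 with shXPO7_5 from 0.281 to 0.0938 and for NXT2 in OIS from 0.233 to 0.105, with the same reads.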
